A study of Mus musculus with 4 samples.

Results

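The genes described here encode the major histocompatibility complex (MHC) molecules of the mouse and the proteins that make and load their peptides. Members were all genes whose symbol starts with H2-, together with 15 named partner genes, if a probe set carried their symbol alone. This gave 34 of the 12393 genes with such a probe set: 13 MHC class I heavy chain genes, 7 MHC class II chain genes, 9 genes of the class I pathway, 3 of the class II pathway, the class I-like gene Cd1d1, and H2-Ke6, a steroid dehydrogenase gene that lies in the MHC region but encodes no MHC chain. Of the 15 partner genes 13 had such a probe set. Nlrc5 and Psme2 did not and are not analysed here. A gene with several probe sets was represented by the one with the highest mean signal. The 13 class I genes include 3 that RefSeq lists as transcribed pseudogenes (H2-D4, H2-Bl and H2-Q5), and the class II genes include 1 (H2-Ea).

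The RNA came from mammary tumours of female nulliparous FVB mice, either wild type (WT) or carrying the transgene MMTV-PAX8PPARg, which expresses a fusion of a thyroid transcription factor and the nuclear receptor PPARg from the mouse mammary tumour virus promoter, a promoter active in mammary epithelium. All 4 groups received 15 mg of the progestin MP (Depo-Provera) under the skin, then 1 mg of the carcinogen DMBA by mouth in 4 weekly doses. RU486 (mifepristone) blocks the receptors for progesterone and for glucocorticoids. Pellets with a 60-day release that held placebo or 2.5 mg of it were implanted 1 day after the last DMBA dose and again 60 days later. Groups are named by genotype and pellet, and values in 4 arrays are always given as placebo then RU486 for WT, followed by placebo then RU486 for PAX8PPARg. Each group had 1 Affymetrix array, hybridised with RNA pooled from 5 mice, so no spread between mice or pools can be given, and a comparison of single arrays has no test.

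Class I molecules display peptides from inside the cell to CD8 T cells and are made by nearly all cells with a nucleus. The proteasome cuts the peptides, the TAP transporter carries them into the endoplasmic reticulum, and the heavy chain is loaded there in complex with beta-2 microglobulin. Class II molecules display peptides from engulfed material to CD4 T cells and are made chiefly by macrophages, dendritic cells and B cells, where the coactivator CIITA switches their genes on and the invariant chain CD74 guards the groove until H2-DM exchanges it for a peptide. FVB mice carry the H2 haplotype q, in which the I-E class II molecule is not displayed.

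Short elements known from the promoters of the 2 classes are shown as background, and their part in the values below was not tested. Sequence came from RefSeq windows of build GRCm38.p6 that run from 250 bases before to 50 bases after a gene's start. The reference strain is C57BL/6J, not FVB. A window was found for 23 of the 34 members, 5 of them class II chain genes and 8 of them class I heavy chain genes. In class II promoters the X box and the Y box lie a fixed distance apart, and factors bound to them recruit CIITA. The cores GCAAC (X) and GATTGG (Y) were searched on both strands, as a pair in which Y follows X on the same strand after 15 to 40 bases. The pair was in 3 of 5 class II windows by gene (H2-Aa, H2-Eb1 and H2-Oa), in 0 of 8 class I windows, and in 0.435% of all 32851 windows of that length. Single cores were in both classes. The X core was in 4 of 5 class II and 2 of 8 class I windows by gene (35.2% of all windows). The Y core was in 5 of 5 and 4 of 8 (16.1%). The X and Y cores are in capitals below, each line 5′ to 3′ on the strand of the gene.
H2-Aa, chr17:34287847-34287924, minus strand: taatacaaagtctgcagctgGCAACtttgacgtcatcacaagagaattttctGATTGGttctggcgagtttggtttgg
H2-Eb1, chr17:34305756-34305832, plus strand: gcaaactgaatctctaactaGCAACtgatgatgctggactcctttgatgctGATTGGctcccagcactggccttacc
H2-Oa, chr17:34092283-34092360, plus strand: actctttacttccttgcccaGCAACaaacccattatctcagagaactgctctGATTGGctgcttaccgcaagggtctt
The cores are 27, 26 and 27 bases apart in H2-Aa, H2-Eb1 and H2-Oa. The letters match a known module, but they are no evidence of binding in these tumours.

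Class I promoters are known for an element that responds to interferons. The letters TTTCNNTTC, on either strand, were in 4 of 8 class I windows by gene (H2-K1, H2-D1, H2-M3 and H2-Q10), in 0 of 5 class II windows, and in 7.52% of all windows. The first form was in 1 of 8 class I pathway windows (Psme1). A variant of it has 1 more T before the last C, and cannot begin at the same base as the first form but can overlap it. This variant was in 3 of 8 class I pathway windows (B2m, Erap1 and Psme1) and in 3.44% of all windows. It was in 0 of 8 class I heavy chain windows and 0 of 5 class II windows. Matched letters are in capitals, and in B2m they are the variant read on the opposite strand.
H2-K1, chr17:34000409-34000457, minus strand: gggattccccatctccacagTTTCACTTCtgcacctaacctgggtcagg
H2-D1, chr17:35262924-35262972, plus strand: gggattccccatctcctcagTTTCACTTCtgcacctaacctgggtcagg
B2m, chr2:122147528-122147577, plus strand: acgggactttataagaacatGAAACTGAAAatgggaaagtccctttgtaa
The H2-K1 and H2-D1 stretches are identical at 48 of 49 bases. The cores and the allowed distance were chosen with knowledge of these elements, so the counts describe the windows and test nothing.

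Values are deposited probe set signals on a linear scale. Differences are log2(signal + 16) of the first-named array minus the second, after each array was centred on its median, and "2-fold" means a difference of at least 1 on that scale. Each array holds 27 probe sets for bacterial transcripts, and a signal no higher than the brightest of them is said to lie within the background range. That limit was 8.3 to 35.3 over the arrays and was highest on PAX8PPARg RU486. By this measure 27 members were above background on all 4 arrays, and 7, all of them class I heavy chain genes, were within the background range on at least 1. The median signal over probe sets was highest on PAX8PPARg placebo, at 188.35. Pax8 signals did not leave the background range on any array, and Pparg read 75.9, 35.4, 497.5 and 13.2. The sources used here do not say whether either probe set detects the fusion transcript, so these signals do not check the genotype labels. Luminal epithelial markers summed to 37759, 6299, 34110 and 38050 over 11 genes, so WT RU486 had the lowest summed level of these markers.

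Class II chain genes were highest under RU486 in WT and lowest under RU486 in PAX8PPARg. All 7 were higher under RU486 than under placebo in WT, with a median difference of 0.97, and all 7 were lower in PAX8PPARg, with a median of -1.02. The median over all 12393 genes was 0.01 and 0.13 in these comparisons. Of the 7, 5 had their highest signal on WT RU486, as did 27.6% of all genes. On PAX8PPARg RU486 6 had their lowest signal, as did 2951 of all 12393 genes.

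The genes of the I-A molecule, which FVB mice display, had their highest signals on WT RU486. H2-Aa, the I-A alpha chain, read 5307, 10416, 7232 and 5060.5. Its difference for RU486 was 0.97 in WT and -0.38 in PAX8PPARg, and its second probe set gave 1.16 and -0.45. H2-Ab1, the I-A beta chain, read 1788, 3459, 2505 and 1487, and its 3 probe sets lay between 0.95 and 1.21 in WT and between -0.85 and -0.59 in PAX8PPARg. Both chains thus had the same order of arrays, with WT RU486 first, PAX8PPARg placebo second and the other two close to each other.

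The genes of the I-E molecule had the same order of arrays and wider differences. H2-Eb1, the I-E beta chain, read 128.2, 364.1, 258.1 and 95.2, with an RU486 difference of 1.40 in WT and -1.17 in PAX8PPARg. H2-Ea, the alpha chain that this haplotype lacks at the cell surface, still gave signals of 71.2, 229.5, 144.4 and 55.9 (1.49 and -1.02). The other probe sets of H2-Ea are less sure, since both of them were within the background range on at least 1 array. Over its 3 probe sets the RU486 difference ranged from 0.07 to 1.64 in WT and from -1.86 to 0.36 in PAX8PPARg, and with probe sets averaged the second value was -0.84 in place of -1.02.

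The genes of peptide exchange split into different patterns. H2-DMa, the alpha chain of the exchange factor, read 298.6, 676.5, 429.5 and 254.7, which is the order of the I-A genes. H2-DMb2, a beta chain of the same factor, read 328, 373, 723 and 127. Its highest array was PAX8PPARg placebo, its RU486 difference in WT was only 0.18, and its difference in PAX8PPARg was -2.24. H2-Oa, part of the H2-O inhibitor of H2-DM that is known from B cells and thymus, likewise peaked on PAX8PPARg placebo, with signals of 35.6, 60.8, 195.3 and 44.4. H2-Oa and H2-DMb2 were the 2 class II genes whose highest array was PAX8PPARg placebo. That is 2 of 7 chains, near the 26.2% of all genes with their highest signal there. B cell markers had that peak too: their 8 measured genes summed to 94.6, 259, 2046 and 159, with 8 of 8 highest on PAX8PPARg placebo. Of the 8, 5, 4, 0 and 7 were within the background range on the 4 arrays. The peak was not particular to B cell markers, since 5 of 5 endothelial markers were also highest on that array. The part of these cells in the H2-Oa and H2-DMb2 values was not tested.

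The class II partners were highest on WT RU486 in 3 of 3 cases, as were 27.6% of all genes. Cd74, the invariant chain, read 4334, 10146, 5541 and 4294, with an RU486 difference of 1.22 in WT and -0.23 in PAX8PPARg. Ciita, the coactivator of class II transcription, read 46.5, 123, 68.9 and 63.3, differing by 1.15 in WT and 0.04 in PAX8PPARg. The second value was -0.10 without centring and -0.04 under quantile normalization, so it has no settled direction. The second Ciita probe set, dimmer and within the background range on PAX8PPARg RU486, gave 0.49 in WT. Ifi30, a thiol reductase that opens disulphide bonds of antigens in lysosomes, read 2536, 4385, 2881 and 1933. In WT the partners thus differed about as much as the class II chains, while in PAX8PPARg their median of -0.23 was nearer to 0 than that of the chains.

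**Figure D1:**
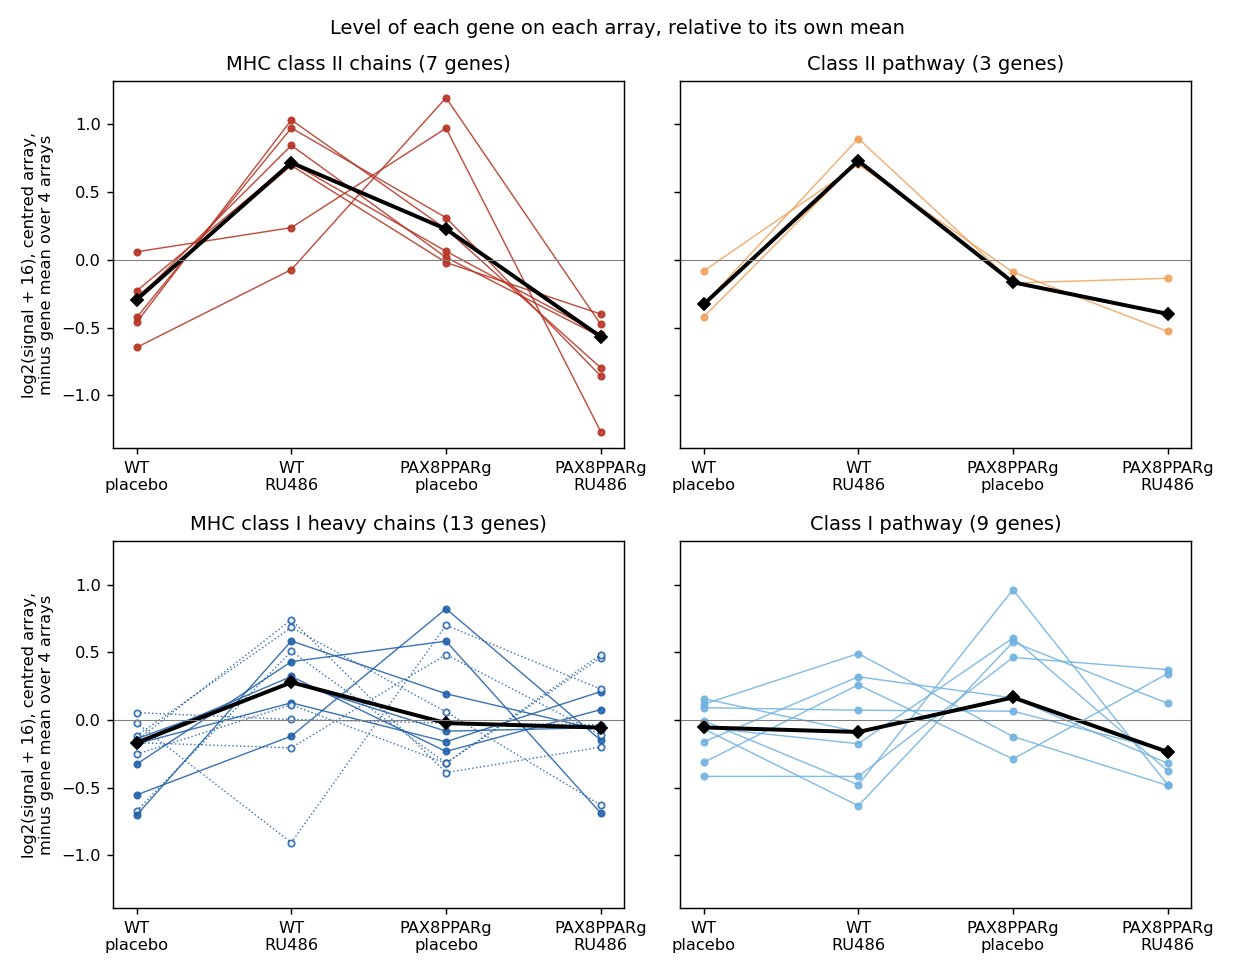
Each line is 1 gene and each point its log2(signal + 16) on 1 array, minus the gene's own mean over the 4 arrays, with 4 panels for class II chains, class II pathway, class I heavy chains and class I pathway. The black line with diamonds is the median over the genes of a panel, and open points on dotted lines are genes within the background range on at least 1 array. The median lines of the class II panels peak on WT RU486, and that of the class I pathway panel on PAX8PPARg placebo.

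The classical class I genes were bright on every array and differed little. H2-K1, a heavy chain that presents to CD8 T cells, read 10224, 12606, 11791 and 13898. Its difference for RU486 was 0.30 in WT and 0.37 in PAX8PPARg, the latter turning to -0.67 under quantile normalization. H2-D1, the other classical heavy chain measured, read 6287, 8395, 7463 and 6930, with differences of 0.42 and 0.03, the latter -0.11 without centring and -0.59 under quantile normalization. Luminal markers had a median difference of -3.02 for RU486 in WT, and these 2 heavy chains were not lower there.

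Other probe sets of the classical genes did not all show that pattern. Class I genes are close copies of each other, and probe sets with the suffix _x_at hold probes that can also bind related sequences. H2-K1 had 4 probe sets, and in PAX8PPARg their RU486 differences ran from -1.48 to 1.47. The probe set at -1.48 read 1113, 1699, 3995 and 1295, so it peaked on PAX8PPARg placebo, unlike the brightest one. H2-D1 had 9 probe sets, of which 6 were above background on all arrays, and these ran from -0.59 to 0.95. In WT the probe sets of both genes were on one side, between 0.30 and 0.94 for H2-K1 and between 0.30 and 0.61 for H2-D1. The classical heavy chains in PAX8PPARg are therefore uncertain as to direction.

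Among the non-classical class I genes, 4 were above background on all arrays. H2-M3, which presents peptides that begin with N-formylmethionine, as bacterial ones do, read 532, 909, 1157 and 428. Its RU486 difference was 0.76 in WT and -1.27 in PAX8PPARg. H2-T24 read 86.2, 233.1, 201 and 148.2, and its WT difference of 1.29 was beyond 2-fold. H2-M9 read 22.5, 36, 97.9 and 37, and H2-Q5 44.4, 68.6, 49.8 and 58.3. H2-M3 and H2-M9 were highest on PAX8PPARg placebo and H2-T24 and H2-Q5 on WT RU486, so these genes followed no common order.

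The remaining 7 class I genes gave no firm values. H2-M10.1, at 1.8 to 18.1, never left the background range. H2-Q2, H2-Q10, H2-T3, H2-T18, H2-D4 and H2-Bl were within it on 1 to 3 arrays, with no signal above 46.5. The class I differences past 2-fold of H2-T18 (1.18 for RU486 in WT), H2-D4 (-1.31) and H2-Q2 (1.13, both for genotype under RU486) rest on such signals and are not exact.

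Cd1d1, a class I-like molecule outside the MHC that presents lipids to NKT cells, had the largest RU486 difference of all members in PAX8PPARg. It read 141.9, 251.1, 609.4 and 91.1, a difference of 0.76 in WT and -2.41 in PAX8PPARg, and its second probe set gave 0.96 and -1.74. Its highest array was PAX8PPARg placebo with both probe sets. T and NK cell markers, with 12 of 14 highest on that array (26.2% of all genes), summed to 1104, 654, 3193 and 397. That peak was not particular to them. It was in 8 of 8 B cell, 5 of 5 endothelial, 6 of 9 dendritic cell and 11 of 19 interferon response genes. It was in 0 of 12 macrophage, 1 of 7 pan-leukocyte and 3 of 11 luminal epithelial markers. The part of any of these cells in the Cd1d1 values was not tested. H2-Ke6, the steroid dehydrogenase gene, read 500.3, 254.3, 583.5 and 349. It was lower under RU486 in both genotypes (-0.93 and -0.58).

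**Figure D2:**
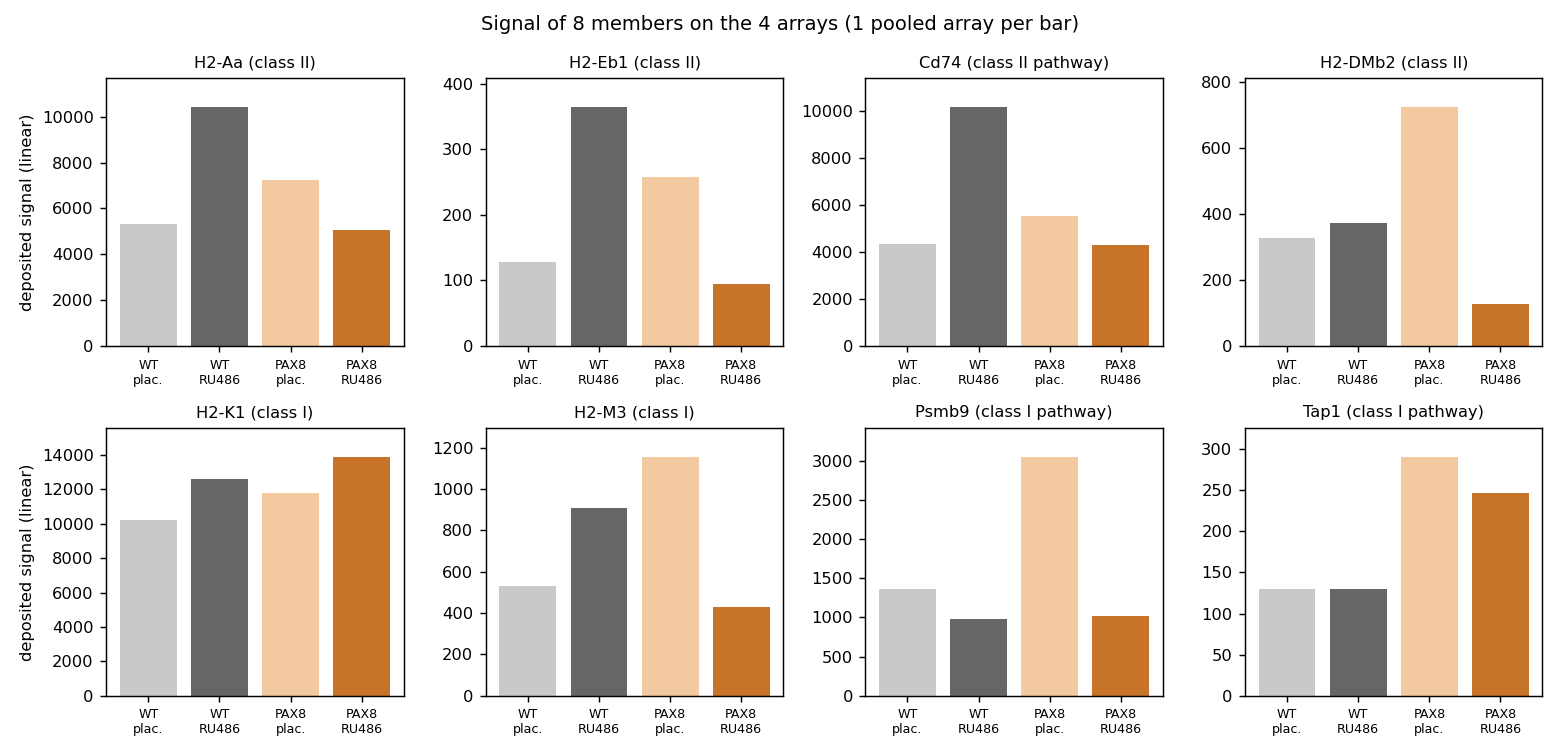
Bars give the deposited linear signal of 8 members on the 4 arrays, 1 pooled array per bar, with a separate axis from 0 for each gene. H2-Aa, H2-Eb1 and Cd74 are tallest on WT RU486, H2-DMb2, H2-M3, Psmb9 and Tap1 on PAX8PPARg placebo, and H2-K1 differs least between arrays.

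The class I pathway genes had their highest signal on PAX8PPARg placebo in 7 of 9 cases, as did 26.2% of all genes. After centring it was 5 of 9 (16.1% of all genes), with Psmb10 then highest on WT RU486 and Tapbp on WT placebo. For RU486, 0 of 9 differed 2-fold in WT (16.3% of all genes) and 1 of 9 in PAX8PPARg (17.7%), counts near the overall shares, and the medians were -0.02 and -0.40. Psmb8, Psmb9 and Psmb10 are the immunoproteasome subunits, which replace the standard catalytic subunits after interferon gamma. Psmb9 read 1360, 974.5, 3053 and 1015, with an RU486 difference of -0.47 in WT and -1.44 in PAX8PPARg. Psmb8 read 1299, 1193, 2354 and 1080, with -0.12 and -0.98. Psmb10, the third of these subunits, read 541, 760.4, 779.6 and 503.3, and differed from the other two in being higher under RU486 in WT (0.48).

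The transporter genes were higher in PAX8PPARg under both pellets. Tap1 read 130.2, 130.1, 290.6 and 246.6, and Tap2 103.6, 64.6, 196.7 and 125.7. Tap1 was higher in PAX8PPARg than in WT by 0.88 under placebo and 0.79 under RU486, and Tap2 by 0.64 and 0.76. Tap1 and Tap2 were the class I pathway genes with the largest positive genotype difference under RU486. Tap1 has 3 further probe sets, all within the background range on 2 or more arrays, and with them the placebo difference ran from -0.48 to 0.88.

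The loading and trimming genes differed less. B2m, the light chain of all class I molecules, read 11334, 16862, 13163 and 18589, higher under RU486 in both genotypes (0.57 and 0.63), but the PAX8PPARg value was -0.55 under quantile normalization. Its second probe set gave 0.64 and 0.20. Tapbp, the loading factor tapasin, read 4097, 4041, 4592 and 3414. Psme1, a subunit of the proteasome activator PA28, read 3211, 2703, 3688 and 2539, and Erap1, which trims peptides in the endoplasmic reticulum, read 244, 320.3, 235 and 162. All differences of Tapbp, Psme1 and Erap1 were within 2-fold.

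The contrast between the classes depended on the comparison. For RU486 in WT the class I heavy chains had a median of 0.43 and the class II chains of 0.97, a gap of -0.54 (class I minus class II). For RU486 in PAX8PPARg the medians were -0.01 and -1.02, a gap of 1.01. The gap was 0.52 under quantile normalization, where the class I median was -0.59, and 0.63 among genes at or above the median level. Among the 6 class I genes above background on all arrays the medians were 0.46 and -0.12. By these medians class II stood above class I in the WT comparison and below it in the PAX8PPARg one, a description of 4 arrays with no test. Class I probe sets shared between genes are not in these medians. The 7 of them above background on all arrays had RU486 medians of -0.05 in WT and -1.05 in PAX8PPARg. The latter is as low as the class II chain median, so a flat class I in PAX8PPARg is not established.

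Counts of members past 2-fold are read beside the share of all genes past it. For RU486 in WT 7 of 34 members were 2-fold higher, where 7.46% of all genes were, and 0 were 2-fold lower, where 8.88% were (16.3% of all genes in either direction). The 7 were H2-Eb1, H2-Ea, H2-DMa, Cd74, Ciita, H2-T24 and H2-T18. For RU486 in PAX8PPARg 0 of 34 were 2-fold higher (10.6% of all genes) and 7 were 2-fold lower (7.08%), where 17.7% of all genes passed in either direction. The 7 were Cd1d1, H2-DMb2, H2-Oa, Psmb9, H2-M3, H2-Eb1 and H2-Ea. H2-Eb1 and H2-Ea are thus in both sets, with opposite signs. Without centring, 9 members were 2-fold lower in PAX8PPARg, and over all genes the count of higher and lower genes went from 1316 and 877 to 1028 and 1080, with the median of all genes at 0.00 in place of 0.13.

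**Figure D3:**
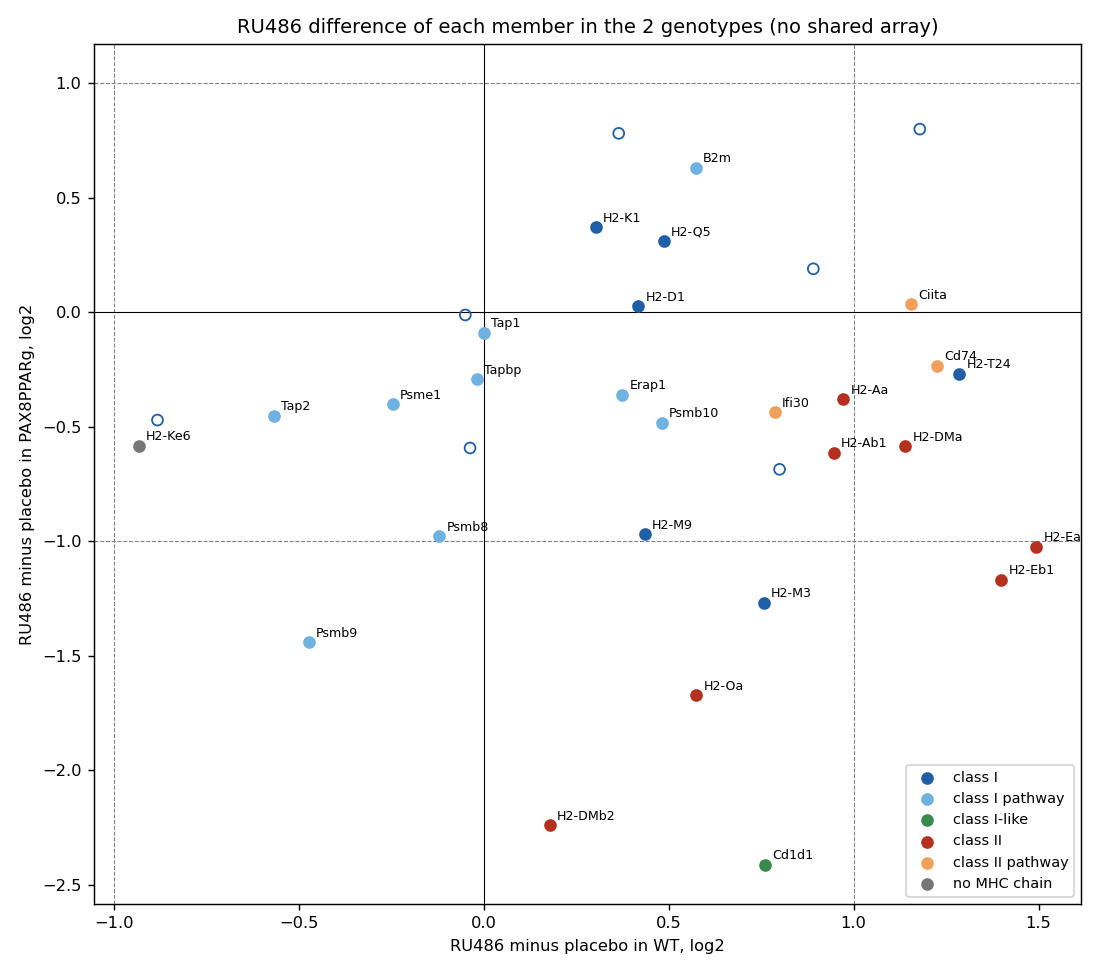
Each point is 1 member, with its log2 difference between RU486 and placebo in WT on the horizontal axis and in PAX8PPARg on the vertical axis. These differences share no array. Dashed lines mark 2-fold, and open points are genes within the background range on at least 1 array. All 7 class II chains lie right of 0 and below 0, and H2-K1, H2-D1 and B2m lie above 0 on both axes, though below 0 on the vertical axis under quantile normalization.

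Between genotypes 9.83% of all genes differed 2-fold under placebo and 21.0% under RU486. These comparisons use the same 4 arrays as those above, so they restate the same values from another side. Under placebo 3 of 34 members were 2-fold higher in PAX8PPARg (4.34% of all genes), H2-Oa (1.84), Cd1d1 (1.80) and H2-M9 (1.37), and 0 were 2-fold lower (5.49%). The count of higher members was 8 without centring, 6 under quantile normalization and 7 with a pseudocount of 1. Without centring the count of all genes went from 538 higher and 680 lower to 744 and 482, and their median from -0.15 to 0.04. That count was 590 and 570 under quantile normalization and 1120 and 1348 with a pseudocount of 1. The class II median was 0.69 and the class I median 0.18. For the 6 class I genes above background on all arrays the class I median was 0.48, nearer to that of class II.

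Under RU486 the class II genes were lower in PAX8PPARg. The class II chains had a median of -1.41, with 6 of 7 beyond 2-fold, and the class II partners of -1.23, with 2 of 3 beyond it. Over all members 11 were 2-fold lower (10.2% of all genes) and 1, H2-Q2, was 2-fold higher (10.9%). Among members above background on all arrays, the largest negative differences were those of H2-Eb1 and H2-Ea, both at -1.83, H2-DMb2 (-1.51), H2-DMa (-1.41), Cd1d1 (-1.38), Cd74 (-1.30) and H2-Ab1 (-1.27). The class I heavy chain median was -0.04, or -0.35 under quantile normalization and 0.02 without centring, and the class I pathway median -0.15. For the 6 class I heavy chain genes above background on all arrays the median was -0.29. H2-Oa was the class II chain that stayed within 2-fold (-0.40).

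An additive model of genotype and treatment over the 4 arrays, fitted with limma to all 12393 genes with 1 residual degree of freedom, called no gene. At an adjusted p under 0.05, 0% of genes passed for treatment and 0% for genotype, and 0 of 34 members passed in either. At an unadjusted p under 0.05 there were 608 genes for treatment and 457 for genotype, among them 1 member for treatment (H2-T18) and 0 for genotype. The lowest adjusted p of a member was 0.889 for treatment and 0.982 for genotype in limma, and 0.764 and 0.938 over the alternatives. The model takes the RU486 difference to be equal in both genotypes, and for class II it had opposite signs.

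Of 51 other genes of these pathways 45 were measured. For RU486 in WT 8 of them were 2-fold higher (7.46% of all genes) and 0 lower (8.88%), with a median of 0.22. They were the lysosomal proteases Lgmn (2.09) and Ctss (1.25), which cut antigens and the invariant chain, the costimulatory ligand genes Cd86 (1.83) and Icosl (1.77), the myeloid transcription factor genes Irf8 (1.82) and Spi1 (1.68), the neonatal Fc receptor gene Fcgrt (1.62) and Ifngr1 (1.11), a chain of the interferon gamma receptor. Irf8, Spi1 and Cd86 are known from macrophages and dendritic cells.

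For RU486 in PAX8PPARg 1 of the 45 was 2-fold higher (10.6% of all genes) and 5 were 2-fold lower (7.08%), with a median of -0.05. The count of lower genes was close to the overall share. The chaperone gene Hspa5 was higher (1.07). Lower were Cd86 (-1.38), Ifngr1 (-1.17), Irf8 (-1.02), the cathepsin gene Ctsh (-1.02) and Cd40 (-1.01). Cd86 read 131.2, 505.6, 176.1 and 51.2, Irf8 read 171.2, 644.4, 409.7 and 175.6, and Ifngr1 read 394, 867, 567 and 220.0. These 3 genes had the array order of the I-A genes at the top, with WT RU486 first and PAX8PPARg placebo second. Ctsh and Cd40 did not: Ctsh read 2054, 1523, 1514 and 671, and Cd40 read 94.7, 92.3, 179.2 and 72.2. Of the genes 2-fold higher in WT, Ctss (0.77), Spi1 (0.54) and Lgmn (0.41) were higher under RU486 in PAX8PPARg too. Cd86, Irf8, Ifngr1, Icosl (-0.64) and Fcgrt (-0.89) were lower there.

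Counterparts of the members by role, chosen after their values were seen, are given by value only, since they were not recomputed under the other scalings. Psmb5, Psmb6 and Psmb7, the subunits that Psmb8, Psmb9 and Psmb10 replace, differed by 0.26, 0.42 and 0.61 for RU486 in PAX8PPARg beside -0.98, -1.44 and -0.48 for the latter. Rfx5, an X box factor, differed by -0.03 in WT and -0.20 in PAX8PPARg for RU486 and by 0.88 for genotype under placebo. Rfxank, in the same order, differed by 0.66, 0.66 and 0.35, and Rfxap by -0.59, 0.08 and -0.45, so these factors had no common direction. Nfya, a Y box factor, differed by -0.08 and -0.44 for RU486, Nfyb by -0.30 and 0.11, and Nfyc by -0.36 and 0.38. Irf1, a transcription factor induced by interferon gamma, read 871, 905, 1188 and 549.8. Ifng itself was within the background range on 3 of 4 arrays, and above it only on PAX8PPARg placebo, at 18.4.

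Pan-leukocyte markers varied along with the class II genes, and the lists of single leukocyte types followed them only in part. In bulk tumour RNA, fewer cells of a type and less RNA per cell cannot be told apart. The 7 pan-leukocyte genes summed to 12446, 27741, 18328 and 10555, with 6 of 7 highest on WT RU486 (27.6% of all genes). The median difference of these 7 for RU486 was 1.30 in WT and -0.75 in PAX8PPARg. The 12 macrophage markers summed to 13691, 50706, 13770 and 12877, with 12 of 12 highest on WT RU486. Their median was 1.76 in WT but -0.04 in PAX8PPARg, where the class II chains were at -1.02. The 9 dendritic cell markers had medians of 0.68 and -1.16, and 4 of the 9 were within the background range on PAX8PPARg RU486. Of these 9, 6 were highest on PAX8PPARg placebo (26.2% of all genes) and only 3 on WT RU486, or 5 and 3 after centring. The 14 T and NK cell markers had medians of -0.03 and -2.14, and the 8 B cell markers of 0.80 and -2.48. In both of these lists 0 genes were highest on WT RU486. The part of these cells in the class II values was not tested.

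Interferon response genes were higher in the PAX8PPARg pools. The 19 measured genes summed to 3563, 3329, 7422.5 and 4986. Of these, 11 were highest on PAX8PPARg placebo (26.2% of all genes) and 7 on PAX8PPARg RU486 (29.6%). After centring it was 9 on each (16.1% and 29.2%). The median difference of the list was 0.00 for RU486 in WT and -0.35 in PAX8PPARg, beside class I pathway medians of -0.02 and -0.40. For genotype it was 0.82 under placebo and 0.52 under RU486, beside 0.32 and -0.15. Under RU486 the list medians thus differed in sign. There 8 of 19 interferon response genes and 0 of 9 class I pathway genes were 2-fold higher in PAX8PPARg (10.9% of all genes). The 0 of 9 is near that share. Of the 19 interferon response genes 1, Mx1 (-1.82), was 2-fold lower (10.2% of all genes). The part of interferon signalling in the class I values was not tested, and no gene of the marker lists was at a signal of 0 on any array.

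**Figure D4:**
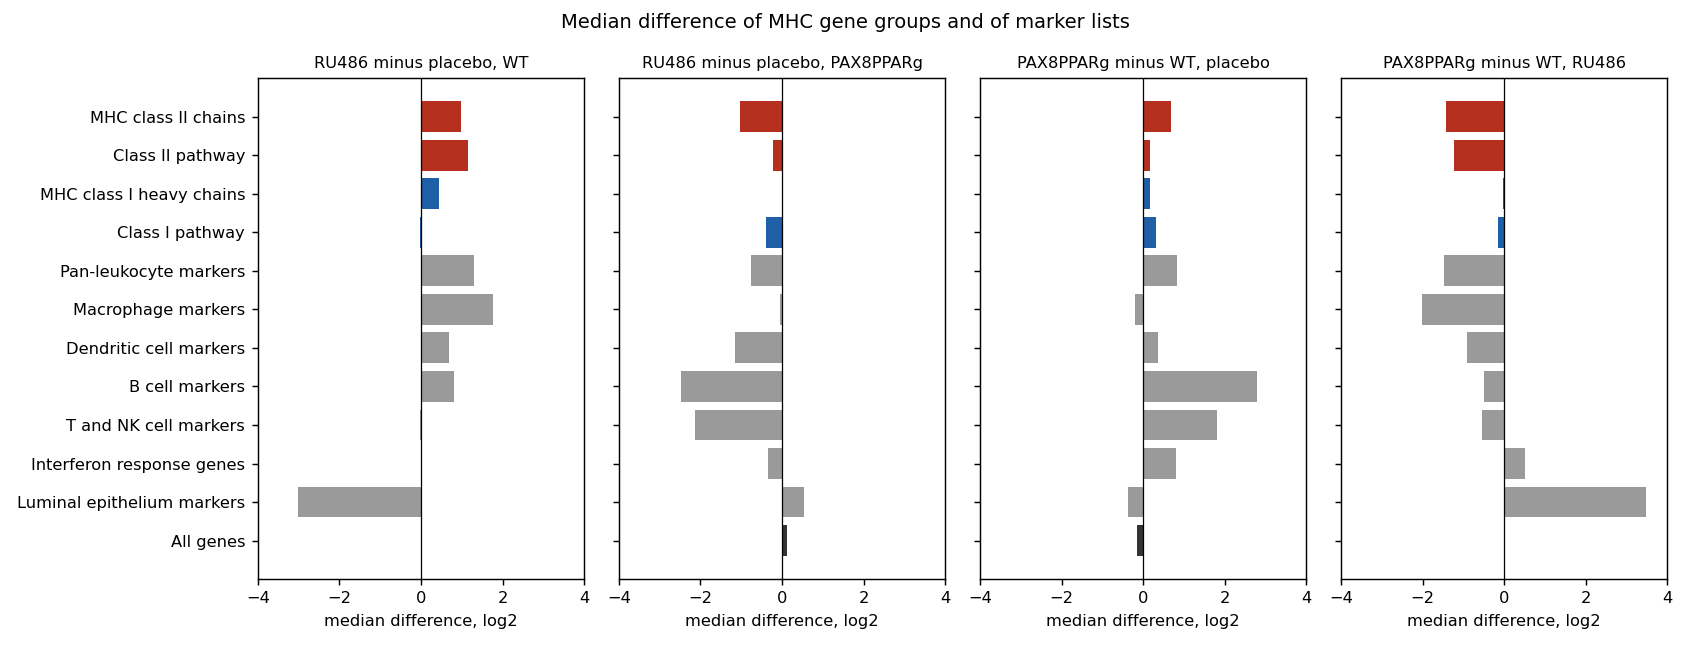
Bars give the median log2 difference over the genes of a list in the 4 comparisons, red for class II chains and pathway, blue for class I heavy chains and pathway, grey for marker lists and black for all 12393 genes. The class II bars point right in WT and left in PAX8PPARg for RU486, as the pan-leukocyte, dendritic and B cell bars do. The macrophage and class I heavy chain bars have these signs too but end near 0 in PAX8PPARg (-0.04 and -0.01). So does the interferon response bar, which ends near 0 in WT (0.00). For RU486 in WT the luminal epithelium bar is the longest.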

How the data were processed

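Probe set signals of the 4 arrays were deposited by the authors as intensity on a linear scale; the signal algorithm is unstated. With 2% of probe sets trimmed at each end, array means lay between 500.15 and 500.20, so the signals had been scaled before deposit. Of 22690 probe sets 64 were controls, and 20380 others had 1 gene symbol in the platform annotation, 691 several and 1555 none. Signals were transformed as log2(signal + 16), the median of the non-control probe sets was subtracted per array, and each gene took its brightest 1-symbol probe set. No filter on level was applied; 18 of 34 members lay at or above the median level of all genes. Arrays limit the precision, with 1 per group. Additive models used limma 3.58.1 in R 4.3.3 with Benjamini-Hochberg adjustment at 0.05, tested on simulated data. Python 3.11.15 and pandas 2.3.3 were used. The alternatives were no centring, quantile normalization, a pseudocount of 1, averaged probe sets and genes at or above the median level. All members are reported, and other pathway genes are named at 2-fold. Psmb5, Psmb6, Psmb7, Rfx5, Rfxank, Rfxap, Nfya, Nfyb, Nfyc, Irf1 and Ifng fall outside that rule and were named after their values were seen. The members and lists were chosen with earlier results of these data known, and the motif cores and the pathway medians were added after the data were seen.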

Additional observations from a re-analysis of the deposited data

Results flagged for a closer look

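Differences for RU486 had opposite signs in the 2 genotypes for 3 gene groups and 16 of 34 members, always higher in WT and lower in PAX8PPARg. Over all genes 19.5% had these signs and 28.2% the reverse. With 1 array per group the difference between genotypes was not tested. The class II chain median was 0.97 in WT and -1.02 in PAX8PPARg, a double difference (PAX8PPARg minus WT) of -2.00. The class II partners had medians of 1.15 and -0.23 (-1.39), and the class I heavy chains of 0.43 and -0.01 (-0.45), the latter value so near 0 that its sign means little.

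All 7 class II chains are among the 16. Their double differences were -2.57 for H2-Eb1, -2.52 for H2-Ea, -2.42 for H2-DMb2, -2.25 for H2-Oa, -1.72 for H2-DMa, -1.56 for H2-Ab1 and -1.35 for H2-Aa. In H2-DMb2 nearly all of it came from PAX8PPARg, since the WT difference was 0.18. Of their partners, Cd74, the invariant chain, had -1.46 and Ifi30, the lysosomal reductase, -1.23.

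The other members were not class II genes. Cd1d1, the lipid-presenting class I-like gene, had the widest double difference of all 16, at -3.17. Among class I heavy chains it was -2.03 for H2-M3, -1.55 for H2-T24, -1.49 for H2-D4, which was within the background range on 1 array, and -1.40 for H2-M9. In the class I pathway it was -0.96 for Psmb10 and -0.74 for Erap1, both with differences within 2-fold in each genotype.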

How the results depend on the processing

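With 1 array per group, no replicate could be left out. Over the alternatives 109 values of groups or counts of members moved by less than the SD between same-gene probe sets (0.24 to 0.33), or by less than 1.5 times for counts, and 21 moved by more; the cause was not tested. No called difference changed sign. Under quantile normalization the PAX8PPARg RU486 difference was -0.59 for class I and -0.64 for the class II partners, with a gap between the classes of 0.52. The gap was then -0.24 for genotype under placebo and 0.97 under RU486. With a pseudocount of 1 the class I median for genotype under placebo was 0.43. For RU486 in PAX8PPARg 12 members then passed 2-fold. Over all genes the counts of higher and lower genes there rose from 1316 and 877 to 2255 and 1295. For genotype under placebo 8 members passed without centring, 6 under quantile normalization, 7 with a pseudocount of 1 and 1 among genes at or above the median level. Over all genes the higher and lower counts, first 538 and 680, were 744 and 482, 590 and 570, and 1120 and 1348 in the first 3 of these settings. Among the 6197 genes at or above the median level they were 117 and 274. With averaged probe sets the class II partners in WT were at 0.82 and the gap under placebo at -0.19. Among genes at or above the median level, where 18 members were left, 2 passed for RU486 in WT and 4 in PAX8PPARg. Of the 6197 genes left, 341 were higher and 512 lower in WT, and 317 and 319 in PAX8PPARg. The class II median was then -0.60 for RU486 in PAX8PPARg and 0.30 for genotype under placebo, the class I pathway median 0.025 under placebo, and the gap 0.63, -0.25 and 1.01 for RU486 in PAX8PPARg and for genotype under placebo and RU486. No paired analysis was possible because each group has 1 array and the labels give no replicate numbers.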

Other observations

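A further 15 probe sets carried the symbols of several genes, at least 1 of them in the present set, and were left out because they name no single gene. Of these, 11 were class I heavy chain probe sets. The 7 of them that were above background on all arrays were all highest on PAX8PPARg placebo, with a median genotype difference of 0.95 under placebo and a median RU486 difference in PAX8PPARg of -1.05. In WT their RU486 median was -0.05. H2-M3 and 1 probe set of H2-K1 were also highest on PAX8PPARg placebo, while the brightest probe sets of H2-K1 and H2-D1 were not. The 3 class II probe sets shared between genes were higher under RU486 in WT, by 0.39 to 0.71, and 2 of the 3 were highest on WT RU486. In PAX8PPARg their RU486 differences were -0.79, -0.70 and 0.12, so 1 of the 3 was not lower there.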
